A study of Xenopus laevis with 74 samples.

Results

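The comparison described here is the last step of the epidermal series of Xenopus laevis animal caps, stage 13 against stage 12 of Nieuwkoop and Faber. Its members are the libraries labelled with the epidermal lineage at those stages, 3 at stage 13 and 3 at stage 12, which is 6 of the 74 libraries of the study. The study followed cells of the blastula animal pole, which can form any germ layer, as they were directed to epidermis, neural tissue, ventral mesoderm or endoderm, and RNA was sequenced at successive stages of each course. Explants were cut at the blastula stage from embryos of 1 frog per fertilization, and 12 to 15 of them were pooled per sample. They were cultured in salt solution until sister embryos reached the stage named. The epidermal explants at stage 13 and at stage 12 received no inducer. The explants they are set beside received Noggin for neural fate, BMP4/7 for ventral mesoderm or Activin for endoderm. Noggin was given in a medium low in calcium and magnesium, and BMP4/7 and Activin in a Ringer's solution. Serum albumin was added as well in all of these treatments. Inducer and medium therefore cannot be told apart where neural and epidermal explants are compared. An explant holds no underlying mesoderm or endoderm, so it models the ectoderm in isolation.

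Untreated animal caps become epidermis because BMP ligands made by the cells themselves keep neural genes off and switch on transcription factors of the surface ectoderm. The frog embryonic epidermis is a mucus-secreting, ciliated skin. Outer goblet cells secrete mucins and lectins, while multiciliated cells, ionocytes and small secretory cells are specified in the inner layer and later move outward between the goblet cells. Stages 12 and 13 are late gastrula and early neurula, the time at which those inner-layer types are being set up.

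The 3 stage 13 libraries held 20777673, 15821837 and 17923147 counts in genes, and the 3 stage 12 libraries held 17254798, 14495346 and 18600984. All 6 lie within the range of 11938338 to 23215739 counts over the series. A gene was tested where it reached 15 counts in at least 1 library of the series, which kept 27424 of 45656 genes. Levels are given as CPM, which are counts scaled to library size by the TMM method over the 6 libraries. Markers matched the label. At stage 13, the keratins summed to 43722, 18209 and 21441 TPM, the length-corrected unit of RSEM, in the epidermal explants, against 4812, 3713 and 4419 TPM in the neural ones and 3999.5, 4125 and 4718 TPM in the endodermal ones. Ventral mesoderm, also exposed to BMP, reached 21319, 16831 and 11369 TPM, which overlaps the epidermal range. A mesoderm list summed to 102, 174 and 225 TPM in the epidermal explants, against 1625, 5615 and 5471 TPM in ventral mesoderm, and an endoderm list summed to 283, 271 and 273 TPM, against 8479.8, 10535 and 11176 TPM in endoderm.

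The libraries fell into numbered pairs. On the first principal component of the 6 libraries, which held 62.1% of the variance, stage 13 lay at 129.83, 13.21 and 22.78 and stage 12 at 11.58, -92.19 and -85.20 for replicates 1, 2 and 3. Every pair therefore moved the same way, but the stage 12 library of replicate 1 sat beside the stage 13 libraries of replicates 2 and 3. In an analysis of all 18 epidermal libraries from stages 9 to 13, replicate 1 lay ahead of the other 2 at every stage, for example at 154.30 at stage 12, where replicates 2 and 3 lay at 87.60 and 91.08. The deviations of same-numbered libraries from their stage means correlated at 0.67, 0.68 and 0.71 in the 3 pairs. All correlations between different numbers were below 0, which centring on the stage means favours once same-numbered libraries deviate together.

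**Figure D1:**
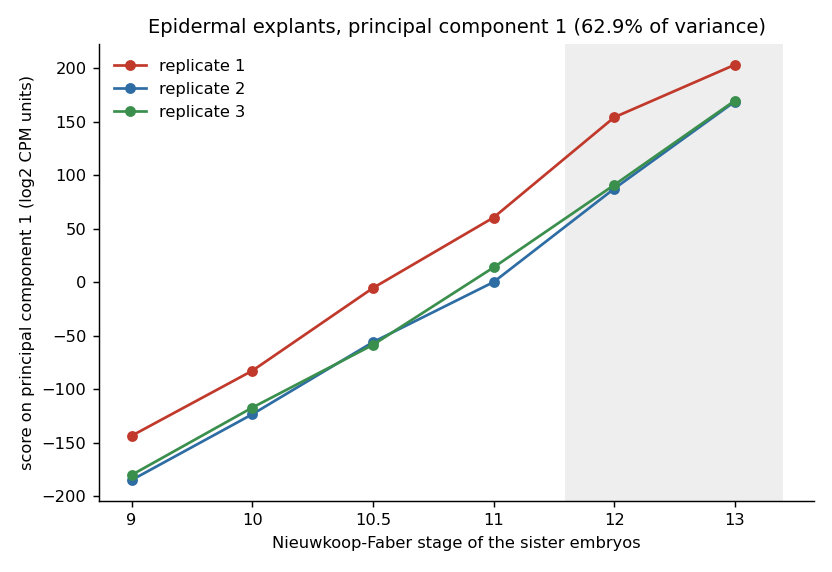
First principal component of the 18 epidermal libraries (y axis, 62.9% of the variance) by Nieuwkoop and Faber stage from 9 to 13 (x axis), with a line for each replicate number. Replicate 1 lies above replicates 2 and 3 at all 6 stages, and at stage 12 it lies at 154.30 while replicates 2 and 3 reach 169.07 and 169.95 at stage 13.

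The question of the comparison was which genes of the epidermis change between the late gastrula and the early neurula. Within the pairs a large part of the transcriptome moved. Rises were found for 24 of 35 keratins, 61 of 103 multiciliated cell genes, 97 of 139 ribosomal protein genes, 15 of 34 goblet cell and mucus genes and 19 of 56 ionocyte genes. Falls took their largest shares in the maternal and pluripotency list, with 21 of 58, and the cell cycle list, with 30 of 100. With the replicate number as a block, edgeR's quasi-likelihood test with Benjamini-Hochberg adjustment called 7115 of 27424 genes at an adjusted p of at most 0.05, which is 25.9%. Of these, 3801 rose, or 13.9% of the genes tested, and 3314 fell, or 12.1%. Folds above 2 were more often rises, with 2129 rises and 1564 falls past 1 on the log2 scale, and 306 rises and 34 falls past 3.

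Without the block the same test called no gene, with 5178 genes at an unadjusted p under 0.05 and a lowest adjusted p of 0.0707. DESeq2 without the block called 2047 genes, 1206 higher and 841 lower. So every edgeR call given below rests on the difference within replicate pairs, and an adjusted p below is from edgeR with the block unless another is named. Of the 3801 genes that rose, 3778 were higher in all 3 pairs, but in 1419 (37.3%) the libraries of the 2 stages overlapped. In 1195 of those 1419 the overlap was gone once the stage 12 library of replicate 1 was set aside. Replicate 1 had the highest value at both stages in 71.7% of the genes that rose, against 23.2% of all genes tested. It had the lowest value at both stages in 65.9% of the genes that fell, against 23.9% of all genes. The reason for the place of replicate 1 was not tested. Without that pair the fit with the block called 10384 genes, and without pair 2 or 3 it called 4824 or 4404. These fits on 2 pairs keep 1 residual degree of freedom per gene and borrow their spread from the other genes.

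**Figure D2:**
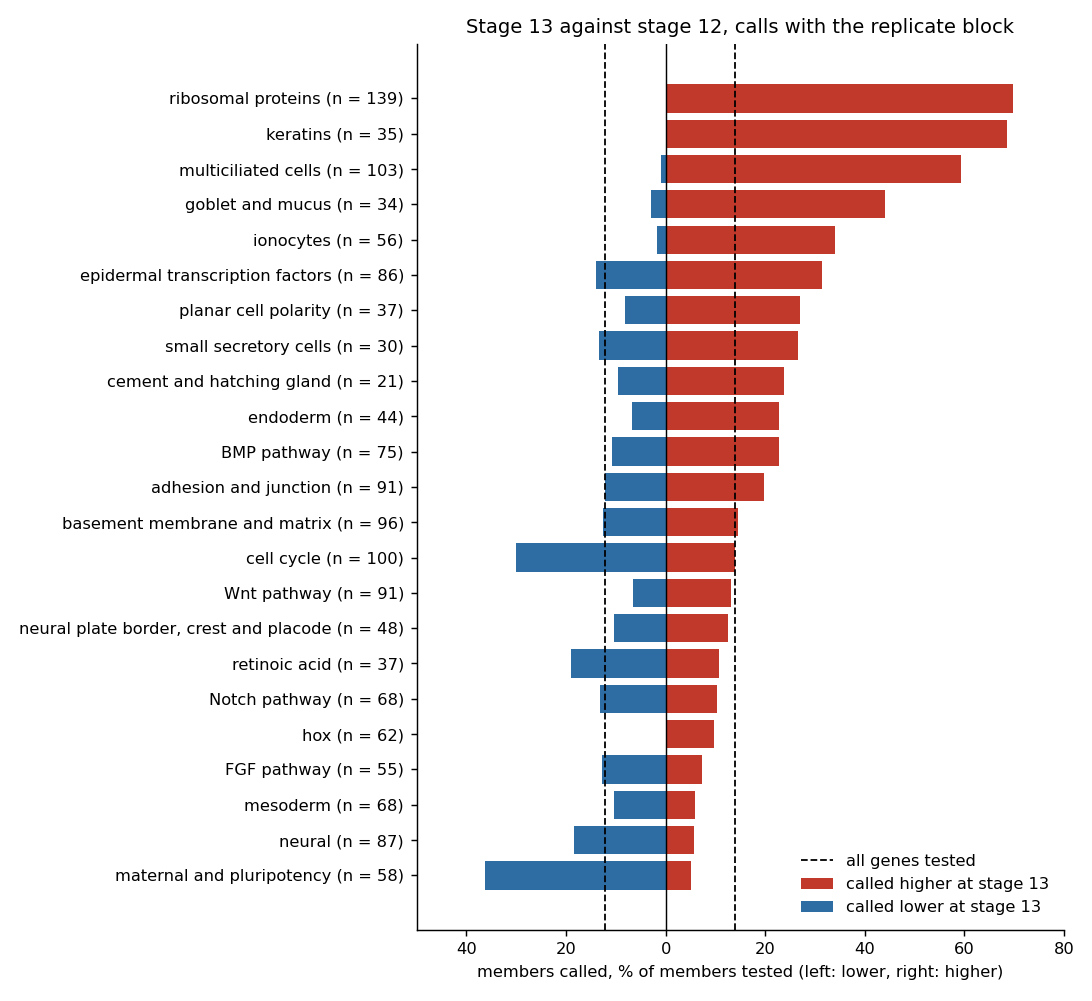
Share of the tested members of each gene list that rose (right of 0) or fell (left of 0) at stage 13 against stage 12 by edgeR's quasi-likelihood test with the replicate block, in percent, with the members tested in brackets. Ribosomal proteins (97 of 139), keratins (24 of 35) and multiciliated cell genes (61 of 103) have the longest bars to the right, while the maternal and pluripotency list (21 of 58) and the cell cycle list (30 of 100) reach furthest to the left.

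Multiciliated cells carry many motile cilia each and are built by a cascade of regulators. Of 103 genes of that list, 61 rose and 1 fell, with a median log2 fold change of 1.17 where the median over all genes tested was 0.00. In 49 of the 61 the libraries of the 2 stages did not overlap, where this held for 2382 of all 3801 genes that rose. Over all genes tested, called or not, the stage 13 libraries lay wholly above those of stage 12 in 12.7%. In bulk explants more cells of a type and more RNA per cell cannot be told apart, and the same holds for fewer cells and less RNA. DESeq2 without the block called 42 of the 103 higher and 1 lower.

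The single member that fell stands at the top of the cascade. The gene gmnc.L, which encodes the geminin coiled-coil protein that starts the multiciliated programme, had 3.91, 10.4 and 8.10 CPM at stage 13, against 14.2, 34.6 and 33.8 CPM at stage 12 (log2 fold change -1.88 ± 0.18 SE, adjusted p = 3.8e-05). All 3 stage 13 libraries were below all 3 of stage 12. Its partner downstream, multicilin, was higher. The gene mcidas.L had 215, 131 and 140 CPM at stage 13, against 122, 34.1 and 37.5 CPM at stage 12 (1.55 ± 0.23, adjusted p = 0.0026). A second multicilin entry, mcidas, had 298, 125 and 140 CPM, against 130, 19.3 and 21.8 CPM (2.18 ± 0.36, adjusted p = 0.013). For mcidas the stage 12 library of replicate 1 lay between the stage 13 libraries, and the fold was 2.29 in replicate 1 and 6.47 and 6.42 in replicates 2 and 3.

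Other regulators of the cascade are on the list. For foxn4.L, a forkhead factor of centriole and cilium genes, the values were 105, 68.3 and 77.2 CPM at stage 13 and 56.2, 19.3 and 20.2 CPM at stage 12 (1.55 ± 0.20). Cyclin O, which the amplification of centrioles needs, rose in both homeologs, by 0.92 ± 0.17 for ccno.L and with ccno.S at 147, 144 and 135 CPM at stage 13 and 108, 46.0 and 41.4 CPM at stage 12 (1.27 ± 0.26). The stages overlapped in neither foxn4.L nor ccno.S. The multicilin partners e2f4 and e2f5 were not called in either homeolog, with log2 fold changes between -0.05 and 0.28.

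The pairs disagreed over foxj1, the forkhead factor for motile cilia. The gene foxj1.L had 113, 199 and 168 CPM at stage 13, against 182, 80.3 and 59.0 CPM at stage 12, and was not called (0.73 ± 0.55, adjusted p = 0.44). It was lower at stage 13 in replicate 1, with a fold of 0.623, and higher in replicates 2 and 3, with folds of 2.48 and 2.84. The homeolog foxj1.S had the same split, with folds of 0.744, 2.50 and 2.39 (adjusted p = 0.31). A related gene, foxj1.2.L, was higher in every pair, with 52.0, 33.3 and 37.2 CPM at stage 13 and 24.9, 3.09 and 4.09 CPM at stage 12 (2.48 ± 0.58, adjusted p = 0.048), though without replicate 2 the adjusted p was 0.15.

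Other members encode parts of the cilium itself. Centrin 4, a protein of the basal body, had 161, 67.6 and 70.7 CPM for cetn4.L at stage 13, against 38.1, 14.6 and 14.6 CPM at stage 12 (2.19 ± 0.14, adjusted p = 4.3e-06), and the folds of the 3 pairs were 4.23, 4.64 and 4.83. The cilium protein gene cfap52.L rose by 1.24 ± 0.13, with folds of 2.50, 2.2 and 2.40. The abundant tubulin gene tubb4b.L reached 1587, 903 and 1168 CPM at stage 13, against 736, 610 and 722 CPM at stage 12 (0.79 ± 0.13). Stage 13 was above stage 12 without overlap for all 3 genes.

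**Figure D3:**
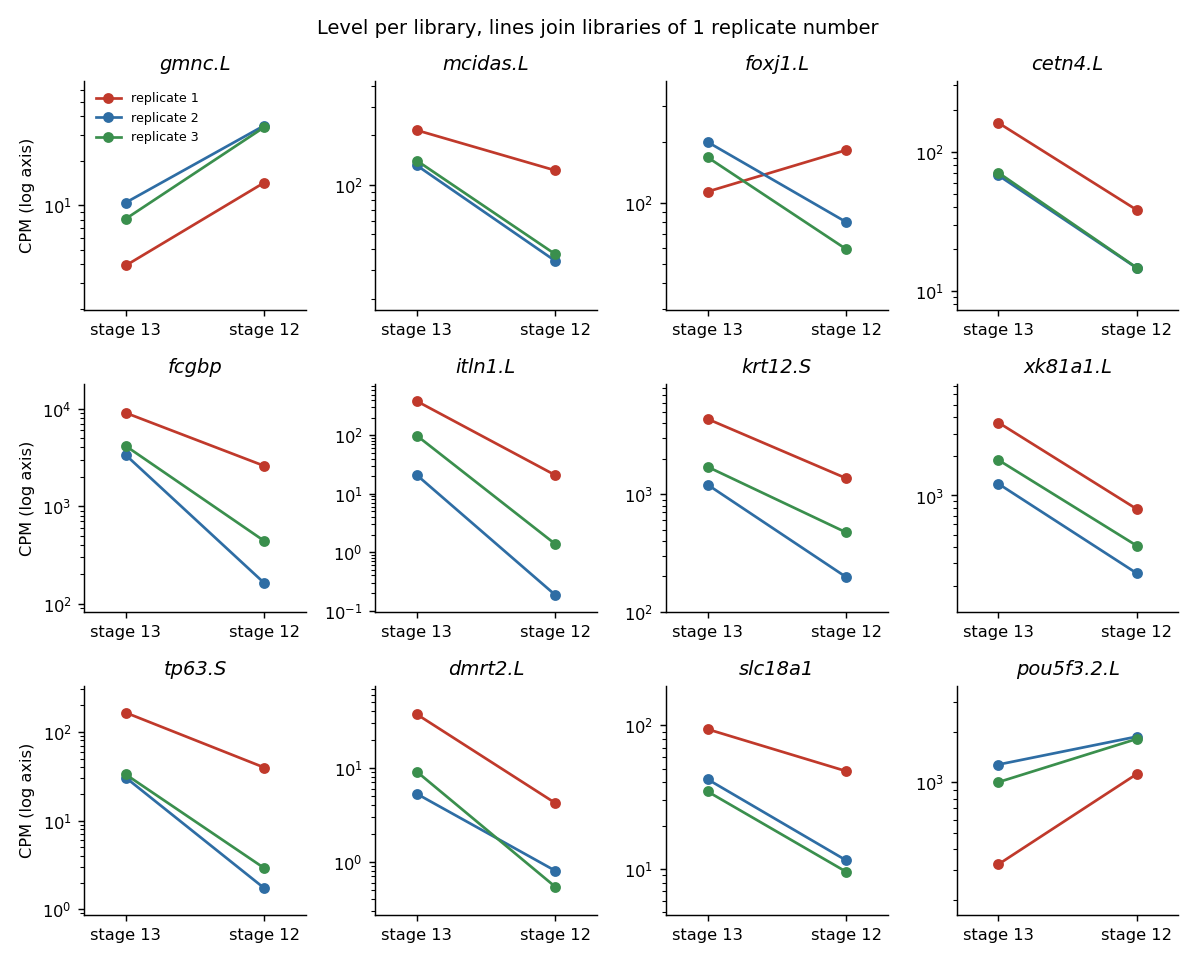
Level of 12 named genes in CPM (y axis, log scale) at stage 13 (left of each panel) and stage 12 (right), with a line joining the libraries of each replicate number. The lines for gmnc.L run lower at stage 13 in all 3 pairs, those for mcidas.L run higher, and for foxj1.L replicate 1 has 113 CPM at stage 13 and 182 at stage 12 while replicates 2 and 3 go the other way.

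Keratins, the intermediate filament proteins of the skin, had the largest share of rises among the lists of epidermal cells. Of 35 tested, 24 rose and none fell by edgeR with the block, where no fall reached an unadjusted p under 0.05 either, and DESeq2 without the block called 9 higher and 0 lower. The median log2 fold change was 1.50. Summed over the list, the CPM at stage 13 was 2.46, 3.26 and 2.58 times that at stage 12 in replicates 1, 2 and 3. The larval keratin gene xk81a1.L had 3645, 1231 and 1876 CPM at stage 13, against 785, 251 and 410 CPM at stage 12 (2.23 ± 0.12, adjusted p = 1.2e-06). Its stage 13 values all lay above its stage 12 values. The gene krt12.S had 4351, 1204 and 1707 CPM at stage 13, against 1366, 198 and 474 CPM at stage 12 (2.04 ± 0.18), and here the stage 12 library of replicate 1 overlapped stage 13. Simple epithelial keratin krt8.L, already high at stage 12, was at 2981, 2228 and 1968 CPM at stage 13, against 1852, 852 and 1038 CPM at stage 12 (1.00 ± 0.14), with no overlap.

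Of 34 goblet cell and mucus genes, 15 rose and 1 fell, with a median of 0.88. The mucus protein gene fcgbp had 9050, 3346 and 4142 CPM at stage 13, against 2590, 163 and 441 CPM at stage 12 (3.13 ± 0.64, adjusted p = 0.050). Its fold was 3.49 in replicate 1, 20.5 in replicate 2 and 9.40 in replicate 3, and the adjusted p was 0.19 without replicate 1 and 0.076 without replicate 2. Intelectin, a lectin that goblet cells of the tadpole skin secrete, went further. For itln1.L the stage 13 values were 386, 20.98 and 99.4 CPM and the stage 12 values 20.9, 0.185 and 1.38 CPM (5.17 ± 0.53, adjusted p = 0.0049). Every stage 13 library was above every stage 12 library, though replicate 2 at stage 13 only just passed replicate 1 at stage 12. The homeolog itln1.S was near the floor and not called, with means of 0.640 CPM at stage 13 and 0.699 CPM at stage 12 (-0.05).

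The mucin genes muc2 and muc1.L were not called. Their means were 21.5 and 6.44 CPM at stage 13, against 28.0 and 7.37 CPM at stage 12 (-0.27 and -0.25). Other members serve the making of mucins. The disulfide isomerase gene agr2.S, which serves mucin folding, was at 398, 78.2 and 77.6 CPM at stage 13, against 101, 6.55 and 9.71 CPM at stage 12 (2.80 ± 0.33), overlapping through replicate 1. The O-glycosylation enzyme gene galnt6 had 395, 198 and 232 CPM at stage 13, against 155, 45.0 and 61.6 CPM at stage 12 (1.80 ± 0.16), without overlap. The homeologs of galnt7 were called in opposite directions. The L copy, galnt7.L, had 189, 89.6 and 127 CPM at stage 13, against 84.2, 37.3 and 43.6 CPM at stage 12 (1.33 ± 0.14), and galnt7.S had 25.9, 30.4 and 33.2 CPM, against 50.5, 53.5 and 45.7 CPM (-0.74 ± 0.15). Reads of near-identical L and S copies can be split between them in counting.

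Ionocytes, which move ions and acid across the skin, gave 19 rises and 1 fall among 56 genes, with a median of 0.61. The specification factor gene ubp1.L had 59.1, 56.2 and 55.8 CPM at stage 13, against 28.5, 21.1 and 17.99 CPM at stage 12 (1.36 ± 0.16, adjusted p = 0.00013), with no overlap and close values within each stage. The master regulator foxi1.S moved less, with 97.1, 64.6 and 51.9 CPM at stage 13 and 71.2, 39.1 and 41.6 CPM at stage 12 (0.50 ± 0.14, adjusted p = 0.022), its stages overlapped, and the adjusted p was 0.25 without replicate 2 and 0.087 without replicate 3. The homeolog foxi1.L was not called (0.25 ± 0.15, adjusted p = 0.26).

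The transcription factor gene dmrt2.L had 37.4, 5.31 and 9.15 CPM at stage 13, against 4.24, 0.803 and 0.542 CPM at stage 12 (3.28 ± 0.28). The carbonic anhydrase gene ca2.L, at 229 counts over the stage 13 libraries and 19 over the stage 12 libraries, rose by 3.09 ± 0.49. Neither overlapped between stages. The member that fell was the proton pump subunit gene atp6v1a.S (-0.52 ± 0.16, adjusted p = 0.033, but 0.19 without replicate 2 and 0.32 without replicate 3).

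Small secretory cells, which later release serotonin onto the skin, had mixed values, with 8 rises and 4 falls among 30 genes and a median of -0.09. These are 26.7% and 13.3%, where 13.9% of all genes tested rose and 12.1% fell. Their forkhead factor gene foxa1.S was at 27.0, 3.71 and 3.11 CPM at stage 13 and 5.28, 1.24 and 0.690 CPM at stage 12 (2.08 ± 0.27). A monoamine transporter gene, slc18a1, had 94.0, 42.1 and 34.6 CPM at stage 13, against 48.0, 11.5 and 9.56 CPM at stage 12 (1.55 ± 0.20). In both genes the stage 12 library of replicate 1 overlapped stage 13. Tryptophan hydroxylase, the first enzyme of serotonin synthesis, was lower. For tph1.S there were 12 counts over the stage 13 libraries and 171 over the stage 12 libraries (-3.58 ± 0.49, adjusted p = 0.00035). The endocrine factor gene insm1.S had 6.67, 14.97 and 13.5 CPM at stage 13, against 18.1, 33.8 and 30.0 CPM at stage 12 (-1.25 ± 0.17), and neither tph1.S nor insm1.S overlapped.

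Transcription factors of the surface ectoderm split into rising and falling members, 27 and 12 of 86. These are 31.4% and 13.95%, where 13.9% of all genes tested rose and 12.1% fell. The largest rises were in tp63, which basal keratinocytes of vertebrate skin depend on. The L copy, tp63.L, rose by 3.51 on the log2 scale but was near the floor, with means of 1.445 CPM at stage 13 and 0.123 CPM at stage 12. The S copy, tp63.S, had 164, 30.5 and 33.1 CPM at stage 13, against 39.6, 1.73 and 2.91 CPM at stage 12 (3.07 ± 0.44, adjusted p = 0.0087). Replicate 1 at stage 12 was above replicates 2 and 3 at stage 13, so the stages overlapped. The homeobox gene dlx2.L did not overlap, with 108, 54.4 and 50.4 CPM at stage 13 and 17.7, 9.57 and 8.87 CPM at stage 12 (2.54 ± 0.15, adjusted p = 2.2e-06), and its pairs gave folds of 6.09, 5.68 and 5.68. Its homeolog dlx2.S moved less (0.50), with means of 57.6 CPM at stage 13 and 42.1 CPM at stage 12.

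The GATA factor gene gata3.S rose by 1.17 ± 0.19, and the grainyhead-like gene grhl1.L, of the family that controls epidermal barrier genes, rose by 0.62 ± 0.12, with an adjusted p of 0.088 without replicate 3. Its relative grhl3.L had 665, 660 and 650 CPM at stage 13, against 649, 566 and 603 CPM at stage 12 (0.12 ± 0.11, adjusted p = 0.49). Among the members that fell, the repressor gene prdm1.L had 3.58, 11.5 and 7.60 CPM at stage 13, against 23.7, 57.6 and 49.5 CPM at stage 12 (-2.58 ± 0.17, adjusted p = 5.5e-06), and prdm1.S fell by 2.14 on the log2 scale, with folds of 0.225, 0.220 and 0.233. Both homeologs were separated by stage. Falls of under 1 on the log2 scale were found for klf17.L (-0.94 ± 0.19), foxi4.2.S (-0.59 ± 0.14) and tfap2a.L (-0.55 ± 0.17). Without replicate 3 the adjusted p was 0.073 for foxi4.2.S and 0.055 for tfap2a.L.

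Ribosomal protein genes moved by little but nearly together. Of 139, 97 rose and none fell by edgeR with the block, not even at an unadjusted p under 0.05, with rises between 0.37 and 0.94 on the log2 scale and a median of 0.49. DESeq2 without the block called 6 higher and 0 lower. Leaving out replicate 1, 2 or 3 left 112, 44 or 53 rises, so the count depended on the pairs used. An example is rpl3.L, with 868, 488 and 469 CPM at stage 13 and 467, 379 and 389 CPM at stage 12 (0.51 ± 0.14, adjusted p = 0.018). Its stage 13 libraries were above its stage 12 libraries, by 1.86-fold in replicate 1 and by 1.29 and 1.21 in the other pairs. On the TPM scale 53 of 136 rose.

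Cell cycle genes gave 14 rises (14.0%) and 30 falls (30.0%) among 100, with a median of -0.11. Over all genes tested, 13.9% rose and 12.1% fell. Among the mitotic cyclins, cyclin A2, ccna2.L, had 118, 261 and 246 CPM at stage 13, against 286, 387 and 381 CPM at stage 12 (-0.82 ± 0.15), without overlap. The A-type cyclin gene ccna1.S was not called (0.21 ± 0.27). Its homeolog ccna1.L had a log2 fold change of -1.96, with means of 1.18 CPM at stage 13 and 4.83 CPM at stage 12. A cyclin B1 entry at a low level, ccnb1.S, fell by 2.43 on the log2 scale (SE 0.31). Its means were 1.32 CPM at stage 13 and 7.23 CPM at stage 12. The more abundant entries ccnb1.2.L and ccnb1.2.S moved less, by -0.53 and -0.26. Their stage 13 means were 214 and 185 CPM, against 308 and 223 CPM at stage 12. The kinase that these cyclins bind went the other way. The gene cdk1.L was at 119, 102 and 95.0 CPM at stage 13 and 100, 39.6 and 55.3 CPM at stage 12 (0.79 ± 0.20), overlapping through replicate 1, with an adjusted p of 0.092 without replicate 2. The replication helicase gene mcm6.2.L had 140, 71.5 and 90.7 CPM, against 68.3, 34.9 and 57.2 CPM (0.91 ± 0.14). Its paralog mcm6.L, named after its values were seen, had 39.5, 55.3 and 49.3 CPM at stage 13, against 63.6, 66.2 and 67.7 CPM at stage 12 (-0.47 ± 0.14, adjusted p = 0.030, but 0.068 without replicate 2 and 0.21 without replicate 3). The stages did not overlap for either copy.

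Of 58 genes of the maternal and pluripotency list, 21 fell and 3 rose, with a median of -0.38. Among them were POU factors of the early embryo, relatives of mammalian Oct4. The gene pou5f3.2.L had 325, 1274 and 1002 CPM at stage 13, against 1121, 1868 and 1810 CPM at stage 12 (-1.06 ± 0.24, adjusted p = 0.020), and replicate 1 at stage 12 was below replicate 2 at stage 13. Its homeolog pou5f3.2.S had 53.4, 258 and 194 CPM, against 219, 605 and 548 CPM (-1.58 ± 0.16), and overlapped in the same way. The maternally supplied member pou5f3.3 was at low levels and fell. The gene pou5f3.3.L had 1.32, 4.09 and 3.11 CPM at stage 13, against 4.30, 11.7 and 8.58 CPM at stage 12 (-1.55 ± 0.24, adjusted p = 0.00086), and pou5f3.3.S fell by 1.62 on the log2 scale (SE 0.27). The third member, pou5f3.1, was not called in either homeolog, and pou5f3.1.L was still at 1246, 1837 and 1541 CPM at stage 13, against 1395, 1211 and 1061 CPM at stage 12.

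Of 91 adhesion and junction genes, 18 rose (19.8%) and 11 fell (12.1%), where 13.9% of all genes tested rose and 12.1% fell. E-cadherin, cdh1.S, was at 976, 581 and 641 CPM at stage 13, against 728, 351 and 442 CPM at stage 12 (0.56 ± 0.12), whereas C-cadherin, cdh3.L, the adhesion molecule of the early frog embryo, was at 188, 356 and 310 CPM, against 547, 587 and 489 CPM (-0.97 ± 0.18). The cdh3.L libraries were separated by stage and those of cdh1.S overlapped, with an adjusted p of 0.056 without replicate 2 and 0.058 without replicate 3. Envoplakin, evpl.L, which cross-links filaments to the cell envelope, had 591, 329 and 449 CPM at stage 13, against 323, 144 and 206 CPM at stage 12 (1.06 ± 0.12), without overlap. Of 96 basement membrane and matrix genes, 14 rose (14.6%) and 12 fell (12.5%), which is near the shares over all genes tested. For laminin beta 1 the copy lamb1.L rose by 1.73 ± 0.31, while lamb1.S had a log2 fold change of 0.01. The means of lamb1.S were 27.55 CPM at stage 13 and 30.74 CPM at stage 12. The laminin receptor subunit gene itga6.S rose by 1.60 ± 0.19, while fibronectin, fn1.S, had 153, 324 and 235 CPM at stage 13, against 408, 466 and 342 CPM at stage 12 (-0.82 ± 0.18).

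The signalling lists had shares of calls between 19.8% in the Wnt pathway and 35.1% in planar cell polarity, where 25.9% of all genes were called. Of 75 BMP pathway genes, 17 rose (22.7%) and 8 fell (10.7%), where 13.9% of all genes tested rose and 12.1% fell. The ligand gene bmp7.1.L had 77.7, 61.7 and 55.4 CPM at stage 13, against 40.5, 26.1 and 21.8 CPM at stage 12 (1.17 ± 0.15), without overlap, while bmp4.L was at 52.7, 38.8 and 41.6 CPM, against 44.4, 32.5 and 33.7 CPM, and was not called (0.27 ± 0.14, adjusted p = 0.19). The more abundant ligand gene bmp7.2.L had 371, 526 and 529 CPM at stage 13, against 833, 616 and 635 CPM at stage 12, lower in all 3 pairs but not called (-0.55 ± 0.19, adjusted p = 0.064). Its homeolog bmp7.2.S had 0.551, 4.99 and 4.61 CPM, against 2.82, 11.9 and 8.28 CPM, and was called lower (-1.34 ± 0.30, adjusted p = 0.0061), so that bmp7 copies changed in both directions. The secreted protease gene tll1.S, whose family cleaves the BMP inhibitor Chordin, had 74.1, 64.9 and 67.1 CPM at stage 13, against 22.9, 28.3 and 24.0 CPM at stage 12 (1.46 ± 0.15). Sizzled, szl.L, which inhibits those proteases, had 583, 357 and 342 CPM, against 232, 210 and 182 CPM (1.00 ± 0.14). Both genes were separated by stage.

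Of 91 Wnt pathway genes, 12 rose (13.2%) and 6 fell (6.6%), and the receptors differed in direction. Of all genes tested, 13.9% rose and 12.1% fell. The gene fzd10.S had 69.5, 47.9 and 49.9 CPM at stage 13, against 17.3, 9.63 and 11.5 CPM at stage 12 (2.14 ± 0.16), and fzd7.L had 12.3, 56.8 and 41.9 CPM, against 46.0, 107 and 104 CPM (-1.36 ± 0.18). The stages were separated for fzd10.S and overlapped for fzd7.L. In planar cell polarity, which aligns cilia across the skin, 10 of 37 genes rose (27.0%) and 3 fell (8.1%). Among them vangl1.L had 63.4, 36.0 and 38.0 CPM at stage 13, against 32.6, 13.4 and 17.5 CPM at stage 12 (1.16 ± 0.16), and the Wnt co-receptor gene ror2.L had 3.86, 12.0 and 9.49 CPM, against 27.4, 46.3 and 38.3 CPM (-2.24 ± 0.20). The defining member vangl2 was not called in either homeolog, with log2 fold changes of -0.02 and -0.01.

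Notch signalling selects which inner-layer cells become multiciliated cells or ionocytes. Of 68 genes, 7 rose (10.3%) and 9 fell (13.2%), where 13.9% of all genes tested rose and 12.1% fell. The ligand gene jag1.L fell by 1.44 on the log2 scale (SE 0.25) and the modifier gene lfng.L was at 15.2, 18.8 and 18.9 CPM at stage 13, against 35.3, 36.1 and 37.8 CPM at stage 12 (-1.05 ± 0.16). Effector genes went both ways, with hey1.S higher (1.09 ± 0.23) and hes4.L lower (-0.58 ± 0.14, with an adjusted p of 0.097 without replicate 3). In the FGF list 4 of 55 rose (7.3%) and 7 fell (12.7%). Among the falls was the receptor gene fgfr4.L, with 70.4, 72.9 and 83.4 CPM at stage 13 and 170, 146 and 190 CPM at stage 12 (-1.15 ± 0.13). In the retinoic acid list 4 of 37 rose (10.8%) and 7 fell (18.9%). The retinoic acid degrading enzyme gene cyp26a1.S had 21.9, 24.7 and 21.4 CPM at stage 13, against 34.8, 54.5 and 47.8 CPM at stage 12 (-0.99 ± 0.16). The stages did not overlap for lfng.L, fgfr4.L or cyp26a1.S.

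Of 87 neural genes, 16 fell (18.4%, where 12.1% of all genes fell) and 5 rose, with a median of -0.45, and 66 were not called. The early neural factor gene zic1.L had 0.992, 5.25 and 3.72 CPM at stage 13, against 6.51, 16.98 and 14.1 CPM at stage 12 (-2.04 ± 0.25), and sall1 had 13.0, 55.1 and 43.9 CPM, against 70.0, 119 and 101 CPM (-1.56 ± 0.27). Both were separated by stage. The neural progenitor factor gene sox2.L was not called (0.13, adjusted p = 0.75). Of the neural plate border, crest and placode list, 6 of 48 rose (12.5%) and 5 fell (10.4%), where 13.9% of all genes rose and 12.1% fell. The genes snai1.S (1.61 ± 0.21) and msx1.L (1.01 ± 0.16) were among the rises. The list summed to 2039, 2103 and 1948 CPM at stage 13, against 2204, 2145 and 2018 CPM at stage 12. In the mesoderm list 4 of 68 rose (5.9%) and 7 fell (10.3%), and in the endoderm list 10 of 44 rose (22.7%) and 3 fell (6.8%). In the hox list 6 of 62 rose (9.7%) and none fell by edgeR or at its unadjusted p under 0.05. In the cement and hatching gland list 5 of 21 rose (23.8%) and 2 fell (9.5%). That list summed to 11464, 8615.5 and 7411 CPM at stage 13, against 9287, 5185 and 5604 CPM at stage 12. The hox list summed to 24.5, 12.0 and 26.7 CPM at stage 13, against 6.26, 6.05 and 7.64 CPM at stage 12. By DESeq2 without the block, 3 hox genes were higher and 0 lower.

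Among calls of at least 5 CPM at the higher stage without overlap, genes with the largest rises were barely expressed at stage 12. The gene odf3.L, named for the outer dense fibre of sperm tails, had 36.1, 1.34 and 1.44 CPM at stage 13, against 0.307, 0 and 0 CPM at stage 12 (6.91 ± 0.47), which is 702 counts against 5. The gene spata18-like.L had 123, 7.81 and 15.8 CPM at stage 13, against 2.21, 0 and 0.197 CPM at stage 12 (6.06 ± 0.30). The gene val.L had 191, 22.1 and 19.5 CPM, against 3.81, 0.803 and 0.444 CPM (5.38 ± 0.22, adjusted p = 3.3e-07). In all 3 genes replicate 1 held most of the signal at stage 13, and the lack of overlap was a condition of the choice. The zinc finger factor gene casz1.L had the same shape, with 29.5, 3.01 and 4.94 CPM at stage 13 and 0.798, 0.371 and 0.0493 CPM at stage 12 (4.79 ± 0.47). Both odf3.L and casz1.L passed the average of 5 CPM only through replicate 1.

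Among calls chosen in the same way, the largest falls were smaller than the largest rises. The chemokine gene cxcl11.L had 0, 0.448 and 0.666 CPM at stage 13, against 1.35, 11.2 and 5.82 CPM at stage 12 (-4.02 ± 0.47). The uncharacterised gene LOC108701852, which had the lowest p without the block, was at 11.7, 19.6 and 16.6 CPM at stage 13 and 99.9, 126 and 77.4 CPM at stage 12 (-2.67 ± 0.18, adjusted p = 5.5e-06). The translesion polymerase gene rev1.L had 6.39, 13.2 and 13.4 CPM, against 47.5, 51.9 and 65.6 CPM (-2.37 ± 0.19). That none of these overlapped between stages was a condition of the choice.

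The earlier stages show how the genes reached these levels. In TPM, gmnc.L went through 0.060, 1.92, 7.11, 24.4, 11.8 and 3.08 over the 6 stages sampled from 9 to 13 in replicate 1. In replicate 2 it went through 0.450, 1.54, 2.14, 8.45, 33.4 and 8.75, so its highest stage was 11 in replicate 1 and 12 in replicate 2, and in replicate 3 it was 12 as well. Multicilin came later, with mcidas.L at 17.8, 4.82 and 5.5 TPM at stage 11 and 139, 41.6 and 45.4 TPM at stage 12. The gene tp63.S was at 2.54, 0.440 and 0.520 TPM at stage 11. It stood at 42.7 TPM in replicate 1 at stage 12, where replicates 2 and 3 had 2.26 and 3.68 TPM, and those reached 33.2 and 32.0 TPM at stage 13. The stage 12 level of tp63.S in replicate 1 was thus above the stage 13 levels of the others. The gene prdm1.L had its highest values at stage 10.5 in replicate 1, at 53.1 TPM, and at stage 11 in replicates 2 and 3, at 49.7 and 45.2 TPM.

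The step before shares the stage 12 libraries with this one, so its values are given only side by side. From stage 11 to 12, edgeR with the block called 7589 genes (27.7%). Ribosomal proteins had 97 rises of 139 at stage 13 against 12 and 132 at stage 12 against 11. Multiciliated cell genes had 61 rises and 1 fall of 103 in the later step, and 39 and 5 in the earlier one. Keratins had 24 rises and no fall of 35 by this test in the later step, and 19 and 2 in the earlier one.

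**Figure D4:**
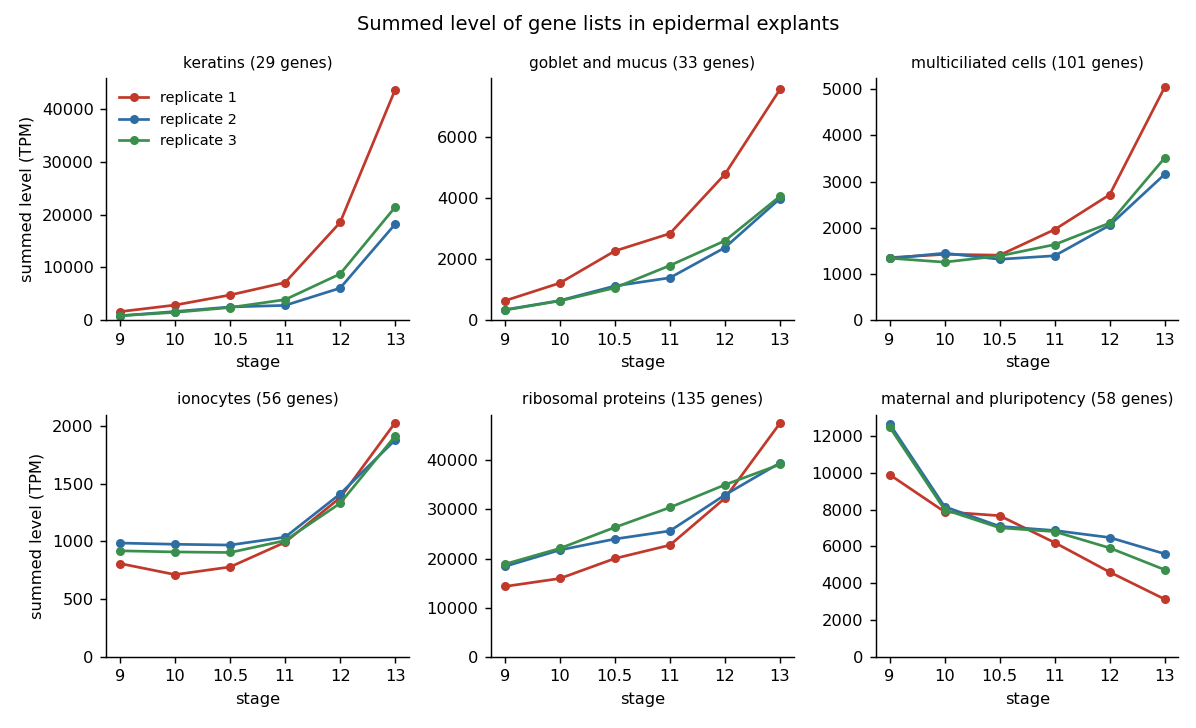
Summed TPM of the members of 6 gene lists (y axes) in the epidermal explants from stage 9 to stage 13 (x axis), with a line per replicate number. Keratins reach 43722, 18209 and 21441 TPM at stage 13, with replicate 1 the highest, and the maternal and pluripotency list ends at 3129, 5593 and 4729 TPM with replicate 1 the lowest.

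The same step was then set beside the step in each other lineage, to ask which changes differed in the epidermis. With the block, stage 13 against stage 12 gave 0 calls by edgeR in neural explants (2766 genes at an unadjusted p under 0.05), 7113 (25.9%) in ventral mesoderm and 8874 (32.4%) in endoderm. Neural pairs were looser. Deviations of same-numbered libraries correlated at 0.46, 0.62 and 0.57 there, against 0.67, 0.68 and 0.71 in the epidermis. An absence of neural calls therefore does not show that the neural step was flat. A call in 1 lineage and not in another does not show a difference, so the difference between steps was tested as an interaction. It was called for 97 genes (0.354%) against neural, 152 (0.554%) against ventral mesoderm and 3220 (11.7%) against endoderm. The epidermal step was the higher one in 62 (0.226%), 80 (0.292%) and 1541 (5.62%) of the genes tested, and the lower one in 35 (0.128%), 72 (0.263%) and 1679 (6.12%). Without the block the counts were 1 (0.00365%), 0 and 224 (0.817%), with 1374, 895 and 3290 genes at an unadjusted p under 0.05, and DESeq2 without the block called 69, 6 and 937. The neural count was 2, 4 or 3 when epidermal replicate 1, 2 or 3 was left out of the fit with the block, the ventral mesoderm count was 188, 106 or 57, and the endoderm count was 3995, 2796 or 2157. A low count of differences does not show that the steps of 2 lineages were alike.

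By list, the median log2 fold change of multiciliated cell genes was 1.17 in the epidermis, against -0.01 in neural tissue, 0.20 in ventral mesoderm and 0.01 in endoderm, and the difference was called higher in 4, 8 and 36 of 103 genes and lower in 1, against endoderm. Members went both ways there, with 19 rises and 11 falls in ventral mesoderm and 13 of each in endoderm. Of all genes tested, 12.9% rose and 13% fell in ventral mesoderm, and 17.7% rose and 14.7% fell in endoderm. For keratins the medians were 1.50 in the epidermis, against 0.47, 1.03 and 0.23, with the difference called in 1, 1 and 11 of 35. For ribosomal proteins the medians were 0.49, against 0.57, 0.42 and 0.31, and the difference was called in 0, 0 and 1 of 139 genes by edgeR, with none at an unadjusted p under 0.05 against neural tissue or ventral mesoderm.

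**Figure D5:**
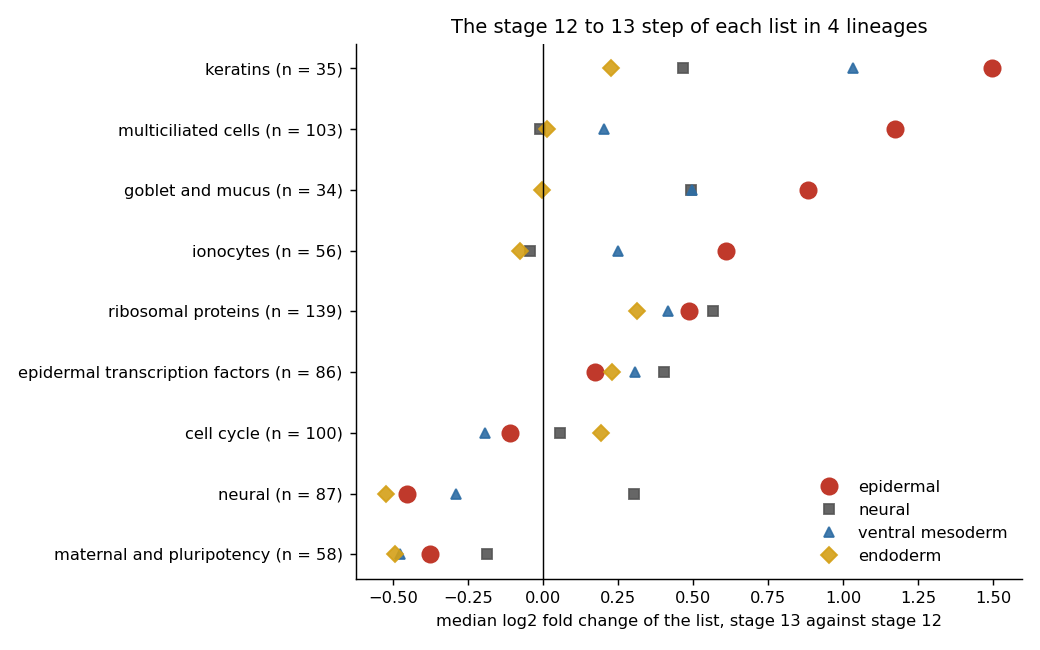
Median log2 fold change of stage 13 against stage 12 over the tested members of each gene list (x axis), for the epidermal lineage and the 3 other lineages. The multiciliated cell list is at 1.17 in the epidermis and between -0.01 and 0.20 elsewhere, and keratins are at 1.50 in the epidermis and 1.03 in ventral mesoderm. The neural list is at -0.45 in the epidermis, -0.29 in ventral mesoderm and -0.52 in endoderm, and at 0.30 in neural explants.

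Single genes with such differences are given here in CPM scaled over all 74 libraries. The neuronal RNA-binding protein gene elavl3 was at 5.4, 15.01 and 7.58 CPM at stage 13 and 32.3, 35.5 and 24.8 CPM at stage 12 in the epidermis, against 66.9, 68.3 and 59.1 CPM at stage 13 and 9.40, 32.8 and 16.2 CPM at stage 12 in neural explants (difference -3.72 ± 0.47, adjusted p = 0.016). Its stages were separated in both lineages, in opposite directions. The endocytic receptor gene lrp2.L did the same, with a difference of -3.75 ± 0.60 (adjusted p = 0.047). The neural rises, 1.92 for elavl3 and 1.88 for lrp2.L, were not called on their own (adjusted p = 0.47 for each). For val.L the difference was 6.65 ± 0.70 (adjusted p = 0.0093). Its neural levels were near 0, at 0, 0.223 and 0.250 CPM at stage 13 and 0.416, 0.405 and 0.455 CPM at stage 12, and the fitted neural change of -1.46 (adjusted p = 0.66) is part of that difference beside the epidermal 5.38.

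Against ventral mesoderm, odf3.L differed by 5.42 ± 1.02 (adjusted p = 0.028), and the G protein subunit gene gnaz.L by 4.00 ± 0.65 (adjusted p = 0.013), with 49.3, 2.97 and 7.3 CPM at stage 13 and 1.75, 0.238 and 0.318 CPM at stage 12 in the epidermis. The protocadherin gene pcdh18.L went the other way. It had 1.44, 0.963 and 1.21 CPM at stage 13 and 3.89, 5.07 and 3.69 CPM at stage 12 in the epidermis, against 5.5, 19.0 and 14.1 CPM at stage 13 and 1.91, 3.83 and 2.1 CPM at stage 12 in ventral mesoderm (-3.97 ± 0.45, adjusted p = 0.0018). Against endoderm, the Delta-like gene dlk2.S differed by -7.41 ± 0.55 (adjusted p = 1.0e-04, and 0.016 without the block). It had 0.216, 2.25 and 0.921 CPM at stage 13 and 9.13, 9.75 and 6.80 CPM at stage 12 in the epidermis, against 13.3, 57.7 and 47.4 CPM at stage 13 and 0.489, 3.33 and 2.15 CPM at stage 12 in endoderm. Both pcdh18.L and dlk2.S were separated by stage in both lineages. Of the differences named here, edgeR without the block called only that of dlk2.S. Its adjusted p without the block was 0.31 for elavl3 and for lrp2.L, 0.61 for val.L and 0.91 for pcdh18.L. Neither odf3.L nor gnaz.L was called without it.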

How the data were processed

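RNA of the 74 samples was made into libraries with the TruSeq mRNA kit and sequenced on a NextSeq 500 for the epidermal, neural and endodermal samples and a HiSeq 4000 for ventral mesoderm, so that lineage and instrument cannot be told apart there. The counts per gene that the authors deposited were obtained with STAR on the X. laevis v9.2 genome, without normalization. The TPM values deposited by the authors came from RSEM on the same genome. Use of read strand in counting is not given in the sources used here.

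Genes that reached 15 counts in any of the 74 libraries were tested with the robust quasi-likelihood test of edgeR 4.0.16 after TMM normalization, with Benjamini-Hochberg adjustment over 27424 genes and a threshold of 0.05. The design without a replicate block was the main one. Because it called no gene, and because same-numbered libraries deviated together (correlations of 0.67, 0.68 and 0.71, each above 0.1), a fit with replicate number as block carries the calls. The study calls its replicates biological and independent. What a number marks, and whether the numbers are separate clutches, is not given in the sources used here. With the block, p-values set a step against its variation between these numbered pairs of explant pools. Without the block they set it against the spread between pools of the same stage. Standard errors are the log2 fold change over the root of the F statistic. DESeq2 1.42.0 and limma 3.58.1 on log2(TPM + 1) and log2(TPM + 0.1) were alternatives, under R 4.3.3, Python 3.11.15, numpy 2.4.6, pandas 2.3.3 and matplotlib 3.10.9.

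The members and the 23 gene lists, written from general knowledge of frog epidermis, were chosen with earlier results of these data known. Named genes were the 12 with the largest changes per direction among calls of at least 5 CPM without overlap, up to 8 called members of highest level per list and direction, the first 6 entries of a list, and the 6 largest differences per direction for each interaction, and the text prints a selection of them. Tested on simulated counts for the epidermal comparison, with 200 of 27424 genes changed, the fit with the block recovered 64% of changes of 1 and 96% of changes of 2 on the log2 scale, with 4 false calls of 164 under trended dispersions and 37 of 197 under gene-wise ones. The fit without it recovered 0% and 23%. The share of 37 in 197 is above the adjusted p threshold, and that of 4 in 164 is below it. Changed genes were simulated with a set fold, so steps that differ between replicate pairs, as for foxj1.L, were not tested. The simulation therefore cannot decide which fit suits the real libraries. Promoter motifs were not analysed here.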

Additional observations from a re-analysis of the deposited data

Results flagged for a closer look

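The step from stage 12 to stage 13 differed between the epidermis and other lineages in the test of the difference with the replicate block. The counts were 97 genes against neural, 152 against ventral mesoderm and 3220 against endoderm. Of the genes described above, elavl3 (-3.72), lrp2.L (-3.75) and val.L (6.65) differed from neural explants on the log2 scale, odf3.L (5.42), gnaz.L (4.00) and pcdh18.L (-3.97) from ventral mesoderm, and dlk2.S (-7.41) from endoderm. Only the difference of dlk2.S was also called by edgeR without the block. The genes elavl3, lrp2.L, pcdh18.L and dlk2.S had changes of opposite sign in the 2 lineages compared, and the others were at low levels in the lineage they were set against. The neural rises of elavl3 and lrp2.L were not called on their own by edgeR with the block. Ventral mesoderm libraries were sequenced on another instrument, and its part in the difference was not tested. With 3 libraries a group, single libraries were not screened as outliers.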

How the results depend on the processing

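Without the block, edgeR called 0 genes at stage 13 against stage 12 with TMM or RLE size factors, with a mean of at least 15 counts, with thinned libraries, with homeologs summed, with a log2 fold change of at least 1, and with limma on all 3 forms of the TPM values. It called 37 genes with no filter beyond 1 count, 3240 with all 18 epidermal libraries in the fit, 3648 with all 74, and 7115 with the replicate block, and DESeq2 called 2047. Leaving out 1 library gave 0 to 370 calls, with 370 for the fit without stage 12 replicate 1. With the block, settings added after the data were seen gave between 5204 (limma on filtered TPM) and 7915 calls, 4404 to 10384 with 1 pair left out, and 3693 past a log2 fold change of 1. Of the 5204 TPM calls 38.2% were rises, where it was 53.4% on counts, and the median gene over 2 CPM lay at -0.10 on the TPM scale and at 0.03 on counts. The split also moved on counts with the block. Rises were 43.8% of calls with all 18 epidermal libraries and 49.4% with a mean of at least 15 counts. They were 51.9% to 58.4% under the other count settings with the block. For the differences between steps, DESeq2 called 69, 6 and 937 genes against neural, ventral mesoderm and endoderm, the replicate block 97, 152 and 3220, and leaving out 1 library without the block 0 to 1, 0 and 50 to 431. With the block, leaving out an epidermal pair gave 2 to 4, 57 to 188 and 2157 to 3995. Of 90 called genes of the text, none changed direction under the settings that gave it a value (7 genes with homeologs summed, 82 on filtered TPM), and all 90 were called with DESeq2 and the block. These genes were chosen as calls of the fit with the block, which favours such agreement. Without the block edgeR called 0 of the 90, and DESeq2 called 49 of 86. With all 18 epidermal libraries in the fit, 38 of the 90 were called without the block and 72 with it. The causes of these shifts were not tested. Depth limits genes with few counts, and the promoter motif search was not run.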

Other observations

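Of 6326 genes with both the L and the S homeolog tested, 461 rose in both copies and 393 fell in both by edgeR with the block. In 76 pairs the copies were called in opposite directions, and in 1973 pairs 1 copy was called, with the other of the same sign in 1374.

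Among the 76 pairs, chosen after their values were seen, glipr2 gave a clear example. The S copy of glipr2 had 26.0, 21.9 and 16.5 CPM at stage 13, against 4.42, 3.58 and 2.71 CPM at stage 12 (log2 fold change 2.59, adjusted p = 1.1e-05), and the L copy had 19.5, 37.0 and 37.3 CPM, against 33.4, 51.5 and 52.2 CPM (-0.58, adjusted p = 0.013, but 0.060 without replicate 2 and 0.098 without replicate 3). For ccdc68, a centriole protein gene, the L copy had 68.2, 26.6 and 21.1 CPM at stage 13, against 25.4, 10.3 and 7.3 CPM at stage 12 (1.44, adjusted p = 8.7e-05), and the S copy had 2.54, 3.33 and 3.66 CPM, against 8.96, 8.71 and 8.58 CPM (-1.47, adjusted p = 0.0012). For pik3r2, a regulatory subunit of phosphoinositide kinase, the S copy rose by 1.38 on the log2 scale, and the L copy fell by 1.5. The S copy was the higher one in all 3 replicates at stage 13, but only in replicate 1 at stage 12. There it had 11.7, 9.14 and 8.04 CPM, against 4.36, 10.8 and 10.5 CPM for the L copy. How far reads of 1 copy were counted in the other was not tested.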
